A study of Mus musculus with 63 samples.

Results

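The 7 genes that encode the subunits of the N-methyl-D-aspartate (NMDA) receptor, Grin1, Grin2a, Grin2b, Grin2c, Grin2d, Grin3a and Grin3b, were followed among 55291 gene symbols in mouse organotypic entorhino-hippocampal tissue cultures. They were taken by gene symbol as the complete family, and all 7 have a count in the libraries. Cultures were prepared at postnatal day 3 to 5 from C57BL/6J (wildtype, Synpo+/+) or B6.129-Synpotm1Mndl/Dllr (Synpo-/-) animals of either sex and matured for at least 18 days. In lesioned cultures the entorhinal cortex had been cut off from the hippocampus (entorhinal cortex lesion, ECL), and the study's methods place tissue collection 3 days later. The 39 regional libraries were each made from a single dentate gyrus (DG) or CA3 area isolated with a scalpel from 1 culture. In CA3 there were 2 control and 3 ECL libraries from wildtype cultures, and 6 control and 6 ECL libraries from Synpo-/- cultures. In DG there were 4 control and 7 ECL wildtype libraries, and 7 control and 4 ECL Synpo-/- libraries. The other 24 libraries came from whole cultures, pooled by 6 in the paper's methods and by 5 to 6 in its figure legend. The cultures were lysed with cycloheximide and split into an input and a fraction co-immunoprecipitated with an antibody against synaptopodin (Synpo-coIP). Wildtype control and wildtype ECL cultures gave 5 input and 5 coIP libraries each. Synpo-/- cultures gave 2 input and 2 coIP libraries, whose labels do not give a lesion status.

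NMDA receptors are glutamate-gated, calcium-permeable cation channels that assemble from an obligatory GluN1 subunit, encoded by Grin1, with GluN2 or GluN3 subunits. GluN2A and GluN2B, from Grin2a and Grin2b, are the main GluN2 subunits of forebrain excitatory neurons, and the balance between them shifts towards GluN2A as hippocampal tissue matures. GluN2C is best known from cerebellar granule cells and glia, GluN2D from interneurons and early development, and the GluN3 subunits bind glycine and lower the calcium permeability of the receptors that hold them. Both DG granule cells and CA3 pyramidal cells use these receptors at their entorhinal inputs, the inputs that ECL removes.

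The genes differ widely in size and base composition, which bears on the sequencing values. On GRCm38, Grin1 lies on chromosome 2 (25291181 to 25319187, minus strand) with 9700 exonic bases and 56.3% G and C. Grin2a lies on chromosome 16 (9567898 to 9995560, minus strand) with 17933 exonic bases, and Grin2b on chromosome 6 (135713233 to 136173511, minus strand) with 24842, the longest of the 7. Grin2c (chromosome 11, 115249169 to 115267243, minus strand), Grin2d (chromosome 7, 45831883 to 45878378, minus strand) and Grin3b (chromosome 10, 79970715 to 79977190, plus strand) are shorter, with 5037, 6658 and 3296 exonic bases and over 60% G and C. Grin3a (chromosome 4, 49661611 to 49845744, minus strand) has 12275 exonic bases and the lowest share of G and C, 44.0%. Reads were counted without regard to strand, so reads from exons shared with a gene on the opposite strand cannot be assigned. Such bases made up 13.5% of the Grin1 exons (Grin1os), 9.66% of the Grin2d exons (Gm45441) and 32.1% of the Grin3b exons (Tmem259), and 0 bases of Grin2a and Grin3a.

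Promoter windows of 300 bases, from 250 before to 50 after the transcription start, were available from RefSeq (GRCm38.p6) for 4 of the 7 genes, namely Grin1, Grin2c, Grin2d and Grin3b. The Grin2d window follows its RefSeq start, which lies inside the gene span given above. It does not cover the annotated start of that gene on the minus strand (45878378). Those of Grin1 and Grin2d are printed because these genes had the largest coIP over input differences of the family in wildtype cultures, and because they differ in base composition and motif content. Capitals mark matches on either strand to the GC box GGGCGG or to the EGR motif GCGNGGGCG. The Grin1 window is chr2:25319138-25319437 and the Grin2d window is chr7:45866632-45866931, both on the minus strand and printed 5′ to 3′ in the direction of transcription.
Grin1: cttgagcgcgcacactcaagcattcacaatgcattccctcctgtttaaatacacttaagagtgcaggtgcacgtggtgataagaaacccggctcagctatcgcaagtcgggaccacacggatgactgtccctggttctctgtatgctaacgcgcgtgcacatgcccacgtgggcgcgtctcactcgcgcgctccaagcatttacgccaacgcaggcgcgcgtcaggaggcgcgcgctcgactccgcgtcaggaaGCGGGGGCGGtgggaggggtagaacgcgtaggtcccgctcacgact
Grin2d: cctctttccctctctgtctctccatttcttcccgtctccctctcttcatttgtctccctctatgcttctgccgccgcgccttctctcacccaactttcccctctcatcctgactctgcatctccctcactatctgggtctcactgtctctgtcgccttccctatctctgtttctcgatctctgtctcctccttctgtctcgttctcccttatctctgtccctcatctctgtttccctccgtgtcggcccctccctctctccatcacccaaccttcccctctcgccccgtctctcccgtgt
The Grin1 window held 1 GC box, starting at base 9 of the transcript, overlapped by 1 EGR motif starting at base 5. The Grin2c window held 3 GC boxes and no EGR motif, and the Grin2d and Grin3b windows held neither. Among 32851 promoter windows, 35.7% held a GC box and 5.55% the EGR motif. These matches describe the letters of the windows only, and no binding was measured.

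Library depth ranged from 14055930 to 46043990 counts in the regional libraries, from 11601154 to 29014397 in the wildtype coIP experiment and from 42886994 to 53682143 in its 4 Synpo-/- libraries. The targeted gene, Synpo, ranged from 30.5 to 69.3 CPM (counts scaled to library size) in regional libraries labelled Synpo-/- and from 19.1 to 38.4 CPM in wildtype ones. It was thus no lower under the knockout label, so gene counts did not check that label, and in control DG it was called higher than in wildtype (log2 difference 1.17, adjusted p = 0.000517). Region labels were checked against 6 granule cell and 6 CA3 pyramidal cell markers. Of the 22 DG libraries, 21 had 287 to 631 CPM summed over the granule cell markers, against 41.6 to 128 in CA3. The remaining library, labelled replicate 5 of the wildtype ECL DG group, had 45.1 CPM of granule cell markers and 382 CPM of CA3 markers (68.5 to 153 in other DG libraries). The group values, shares and plots include it, and the tests that use it are given with and without it.

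Grin2a and Grin2b carried most of the NMDA receptor mRNA in every group. Expressed as CPM per kilobase of exon (RPKM), regional group means lay at 17.4 to 29.9 for Grin2a and 10.8 to 19.9 for Grin2b, against 1.86 to 3.70 for Grin1 and 1.20 to 1.76 for Grin3a. Grin2d (0.283 to 0.477), Grin2c (0.0852 to 0.237) and Grin3b (0.0363 to 0.0954) were the lowest. Without the library that goes against its label, the means of the wildtype ECL DG group stayed within these ranges. Over all 63 libraries, Grin2c had 1 to 38 reads and Grin3b 0 to 24, with 3 libraries at 0. Grin2a had at least 4796 reads and Grin2b at least 4388. Of the 7 genes, 6 passed the filter on low counts in every regional comparison and Grin3b in none. Levels of different genes on this scale also depend on how well each transcript was captured and amplified, so they describe the libraries and not receptor stoichiometry.

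Within the family total per kilobase, Grin2a made up 55.8% ± 3.12 (SD, n = 6) in non-lesioned Synpo-/- CA3 and 54.0% ± 2.54 (n = 7) in non-lesioned Synpo-/- DG. Grin2b made up 35.7% ± 2.89 and 34.0% ± 2.92 in the same groups. Grin3a took a larger share in DG, 4.98% ± 0.644, than in CA3, 2.46% ± 0.285, and the libraries of these groups did not overlap. Grin1 took 4.94% ± 0.559 in CA3 and 5.21% ± 0.727 in DG. In the input of whole wildtype control cultures, which is not compared with the regional libraries, Grin2a made up 64.6% ± 2.25 (n = 5) and Grin2b 25.3% ± 2.19. The plot of shares shows these proportions for all 14 groups.

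**Figure D1:**
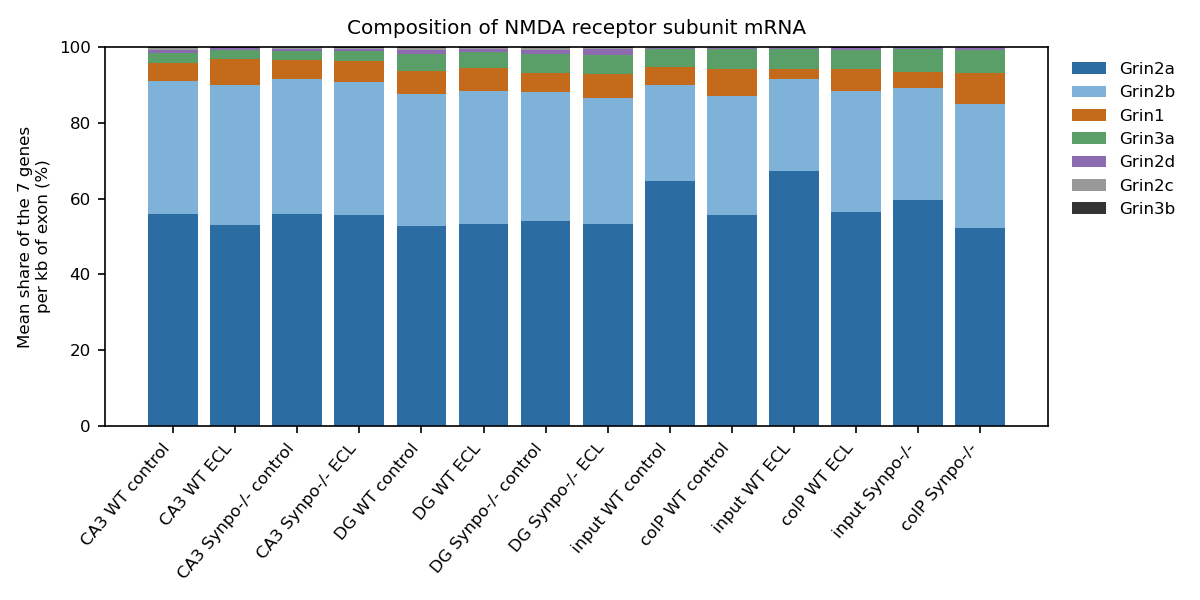
Mean share of each of the 7 NMDA receptor subunit genes in their summed level per kilobase of exon (percent, stacked to 100), by group; each bar is the mean of all libraries of that group, and regional and whole-culture bars are not compared. Grin2a and Grin2b together fill most of every bar, and the Grin3a segment is wider in DG (4.98% in Synpo-/- control) than in CA3 (2.46%).

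The first comparison asked whether the 2 regions differ in their NMDA receptor mRNAs. In non-lesioned Synpo-/- cultures Grin2a, Grin2b and Grin1 were lower in DG than in CA3 and Grin3a was higher, and after ECL Grin2a and Grin2b were lower again. In wildtype cultures no subunit gene was called in the edgeR fit of either comparison with all libraries, though some alternative fits called members, as given below. After ECL, Grin1, Grin2a, Grin2b and Grin3a were called when the library that goes against its label was left out. Values by library are given in CPM scaled by the trimmed mean of M values (TMM) across the experiment, and fold changes come from the edgeR fit of each comparison, which rescales its own libraries.

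In non-lesioned Synpo-/- cultures, Grin2a measured 487 CPM in the lowest, 529 in the median and 618 in the highest of the 6 CA3 libraries. In the 7 DG libraries the lowest was 304, the median 340 and the highest 411. Every DG library was below every CA3 library, and Grin2a fell by 0.53 on the log2 scale (SE 0.0774, edgeR quasi-likelihood test, adjusted p = 3.7e-05). Grin2b ranged from 406 to 579 CPM in CA3 (median 468) and from 232 to 372 in DG (median 317). It too separated the regions without overlap and fell by 0.56 (SE 0.101, adjusted p = 0.00036). Grin1, the obligatory subunit, ranged from 18.1 to 30.6 CPM in CA3 (median 26.7) and from 12.6 to 20.9 in DG (median 20.2). The groups overlapped, and Grin1 fell by 0.41 (SE 0.126, adjusted p = 0.0202). Grin3a went the other way, with 13 to 18.3 CPM in CA3 (median 16.2) and 19.0 to 24.1 in DG (median 21.4). The ranges did not overlap, and Grin3a was higher in DG by 0.52 (SE 0.0906, adjusted p = 0.000243). Thus 4 of the 6 genes tested were called in this comparison, where 25.5% of all genes tested were called. Grin2d (0.33, SE 0.249) and Grin2c (-0.29, SE 0.434) were not called.

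**Figure D2:**
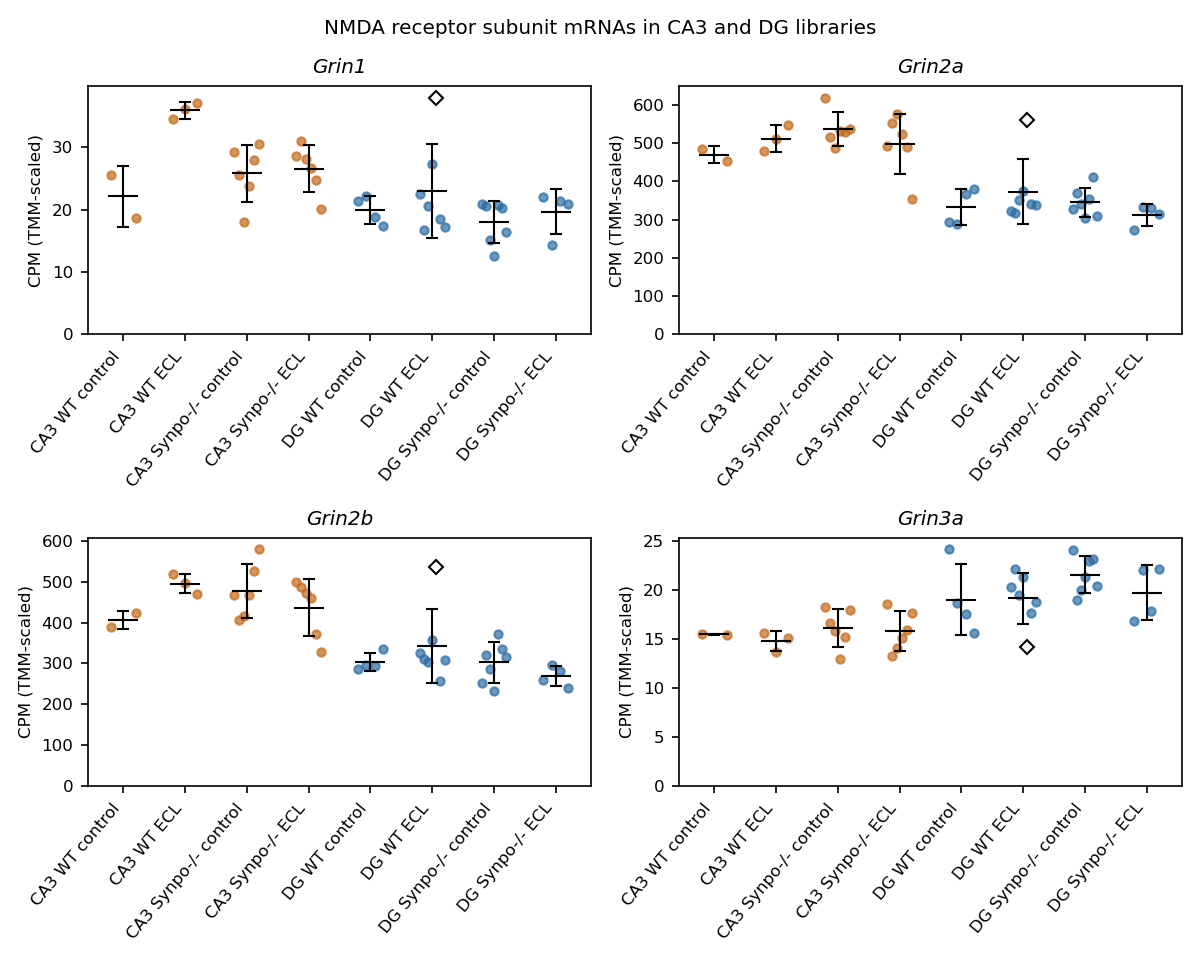
Level of Grin1, Grin2a, Grin2b and Grin3a in each of the 39 regional libraries (TMM-scaled CPM, linear axes from 0), CA3 in orange and DG in blue; bars show the mean ± SD of all libraries of a group, and the open diamond is the wildtype ECL library labelled DG whose markers are those of CA3. Grin2a and Grin2b sit lower and Grin3a higher in DG, and the diamond lies among the CA3 values for Grin2a (560 CPM), Grin2b and Grin3a (14.2 CPM).

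After ECL, the same order of regions was measured in Synpo-/- cultures. Grin2a measured 272, 333, 330 and 314 CPM in the 4 DG libraries, against 354 to 576 (median 508) in 6 CA3 libraries. Grin2b measured 260, 296, 282 and 239 CPM in DG, against 329 to 498 (median 466) in CA3. Neither gene's groups overlapped. Grin2a fell by 0.66 (SE 0.13, adjusted p = 0.00309) and Grin2b by 0.68 (SE 0.129, adjusted p = 0.00228), 2 of 6 genes tested, where 13.6% of all genes were called. Grin1 was lower in DG by a log2 difference of -0.42 (SE 0.138) that missed the threshold (adjusted p = 0.0563; DESeq2 and the replicate block called it), and Grin3a was 0.33 higher (SE 0.13, adjusted p = 0.112).

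In wildtype cultures no gene of the family passed the threshold with all libraries in the fit. In control cultures, Grin2a measured 485 and 453 CPM in the 2 CA3 libraries and 295, 289, 368 and 378 in the 4 DG libraries. Grin2b measured 390 and 423 CPM in CA3 and 287, 296, 293 and 335 in DG. All DG values were below all CA3 values for both genes, with log2 differences of -0.48 (SE 0.15, adjusted p = 0.0882) and -0.41 (SE 0.132, adjusted p = 0.0988). With 2 CA3 libraries, 0 of 6 genes tested were called, where 5.39% of all genes were, and DESeq2 called Grin2a and Grin2b. Grin2a and Grin2b were the 2 members whose unadjusted edgeR p was under 0.05 in this comparison.

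In wildtype ECL cultures the result depended on the library whose markers do not match its label. With it, 0 of 6 genes were called, where 2.05% of all genes were, although 4 of them had an unadjusted edgeR p under 0.05. The replicate block called all 4 of these. The number of that library occurs only in DG, so the block fit took no regional difference from it. Without it, Grin1 (-0.76, adjusted p = 0.000629), Grin2a (-0.54, adjusted p = 0.000413) and Grin2b (-0.63, adjusted p = 0.000272) were lower in DG and Grin3a was higher (0.48, adjusted p = 0.00638). Without it 19.8% of all genes were called. That library measured 37.9 CPM for Grin1, 560 for Grin2a and 536 for Grin2b. The other 6 DG libraries ranged from 16.8 to 27.3, from 316 to 373 and from 256 to 358 CPM, below all 3 CA3 libraries for each gene.

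**Figure D3:**
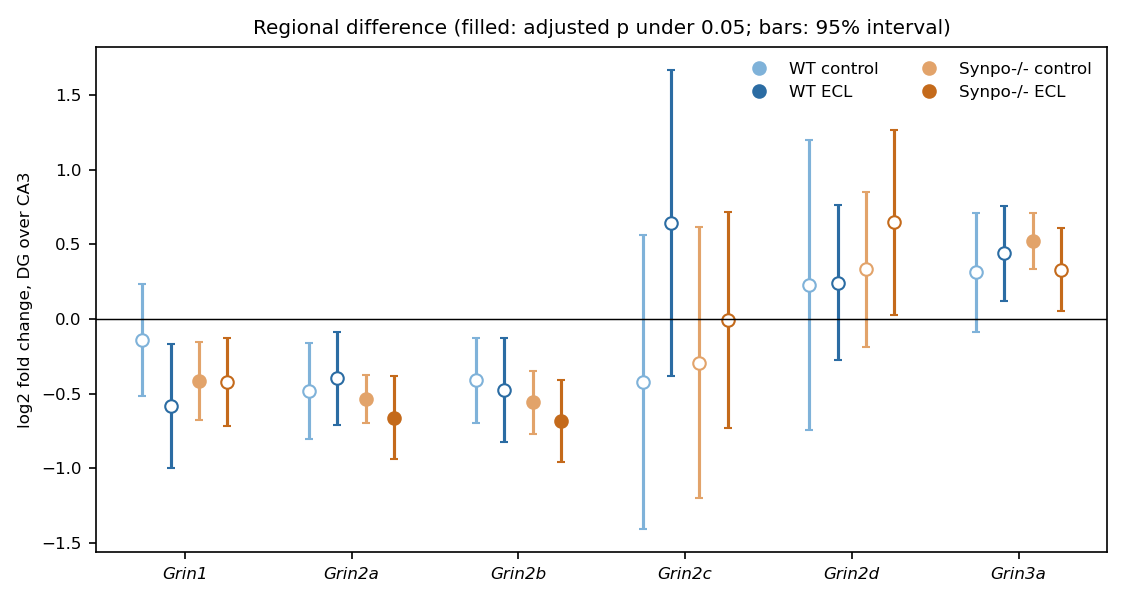
Log2 fold change of DG over CA3 for the 6 genes that passed the low-count filter, in the 4 combinations of genotype and lesion; points are edgeR estimates, bars their 95% intervals, and filled points have an adjusted p under 0.05. Grin2a and Grin2b lie below 0 and Grin3a above 0 in all 4 fits; the wildtype ECL fit includes the library that does not match its label.

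Other transcripts moved with the regions. Over 10 neuronal reference genes, listed apart from the region markers, the summed level was 5296 to 9962 CPM in CA3. It was 3354 to 5932 CPM in the 21 DG libraries that match their label. The median log2 difference of these 10 genes was -0.40 in non-lesioned Synpo-/- cultures, where the median of all genes was 0.05. Interneuron markers ranged from 572 to 863 CPM in CA3 and from 762 to 1510 in DG, and oligodendrocyte markers from 1110 to 2628 and from 475 to 1580. CA1 pyramidal cell markers ranged from 14.7 to 39.9 CPM in CA3 and from 29.3 to 110 in DG. In non-lesioned Synpo-/- cultures 4 of these 5 were called higher in DG (median log2 difference 1.55), where 25.5% of all genes were called. In the same fit 5 of 10 neuronal reference genes and 6 of 6 oligodendrocyte markers were called lower in DG. Of the 6 interneuron markers, 4 were called higher. The part of these differences in the values of the NMDA receptor genes was not tested. In tissue libraries, fewer cells of a type and less RNA per cell cannot be told apart.

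Across the 39 regional libraries, Grin2a and Grin2b varied together (Pearson r of log2 CPM 0.91), and Grin3a ran opposite to Grin2a (-0.72) and Grin2b (-0.67). Grin1 followed Grin2b (0.78) and Grin2a (0.72). These values are descriptions over libraries that share their regional groups. Without the library that goes against its label, they were 0.90, -0.70, -0.66, 0.76 and 0.70 in the same order over 38 libraries. Among 8415 genes with a mean normalized count over 300, the pattern of Grin2a was most like that of Cdk14 (0.98), Atp2b1 (0.98) and Mapk10 (0.97). Grin2b was most like Peak1 (0.95), Ppp2r2c (0.95) and Arhgef17 (0.95), Grin1 like Dnm1 (0.91), 2610507B11Rik (0.90) and Ap2s1 (0.90), and Grin3a like Arl4a (0.85), Rcn1 (0.84) and Pknox2 (0.83). The sparse genes Grin2c, Grin2d and Grin3b had no counterpart above 0.66. Without that library Grin1, Grin2a, Grin2b and Grin3a each had the same 3 most like genes.

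The receptor's partner genes were read beside the subunits from 38 genes listed by role. In non-lesioned Synpo-/- cultures 9 were higher and 11 lower in DG, where 25.5% of all genes were called, with a median log2 difference of -0.07 (0.05 over all genes). The lower ones included Neto1, an auxiliary protein of NMDA and kainate receptors (134 CPM ± 21.9 in DG, n = 7, and 394 ± 42.3 in CA3, n = 6; -1.45, SE 0.102, adjusted p = 4.79e-09). They also included Ppp3cb, a catalytic subunit of calcineurin (-0.65, SE 0.0745), and Cdk5, a kinase of neuronal proteins (-0.76, SE 0.111). The higher ones included the membrane scaffold gene Dlg1, which encodes SAP97 (90.2 CPM ± 6.33 against 42.3 ± 4.45; 1.20, SE 0.0802, adjusted p = 3.1e-09). Dapk1, a calmodulin-regulated kinase that can bind GluN2B (1.46, SE 0.111), and Rasgrf2, a calcium-dependent Ras activator (0.57, SE 0.0798), were higher too. Neto1 was called lower and Dapk1 called higher in DG in each of the 4 region comparisons, and in wildtype ECL also without the library that goes against its label (-1.69 and 1.52). The 4 comparisons share no library.

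The second comparison asked whether ECL changed the subunit mRNAs within a region. No subunit gene was called in any of the 4 regional lesion comparisons. The share of all genes called was 1.78% in wildtype CA3, 12.2% in wildtype DG, 0.077% in Synpo-/- CA3 and 8.53% in Synpo-/- DG. In wildtype DG, Grin2a differed by 0.13 (95% interval -0.19 to 0.45) and Grin2b by 0.15 (-0.18 to 0.48) with all libraries. Without the library that goes against its label the differences were 0.00 (-0.21 to 0.21) and 0.00 (-0.21 to 0.20), no subunit gene was called and 13.8% of all genes were. In the other 3 comparisons the intervals of both genes lay between -0.45 and 0.44.

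Grin1 in wildtype CA3 came nearest to a call. It measured 25.5 and 18.7 CPM in the 2 control libraries and 34.5, 36.2 and 37.1 in the 3 ECL libraries. The groups did not overlap, and the log2 difference was 0.59 (SE 0.158, edgeR adjusted p = 0.0774). DESeq2 (adjusted p = 0.0178) and the fit without a filter on low counts (adjusted p = 0.00691) called it. Leaving out any 1 library of the 5 gave 0 calls. Markers moved in the same fit, where the median of all genes was -0.01. All 6 CA3 pyramidal cell markers had a positive difference (median 0.49, 0 called), the 6 granule cell markers had a median of -0.30 (0 called), and 1 of 8 microglia markers was called higher. Their part in the Grin1 value was not tested. In Synpo-/- CA3 the Grin1 difference was 0.05 (SE 0.118), with 18.1 to 30.6 CPM in control and 20.2 to 31.0 in ECL libraries. The genotypes' lesion differences for Grin1 in CA3 differed by -0.58 (SE 0.229, edgeR adjusted p = 0.216), which was not called.

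Partner genes were called in few of these comparisons. In wildtype CA3, 1 of 38 was called beside the 1.78% of all genes, in the fit with the CA3 marker differences given above. Camk2a, the alpha subunit of the calcium/calmodulin-dependent kinase that binds GluN2B, rose by 0.59 (934 CPM ± 69 in ECL, n = 3, against 575 ± 41.1, n = 2; SE 0.12, adjusted p = 0.0423). In Synpo-/- DG 4 of 38 fell, where 8.53% of all genes were called. They were the scaffolds Dlg1 (-0.73, SE 0.101) and Dlg2 (-0.48, SE 0.0936), the kinase anchor Akap5 (-0.86, SE 0.135) and Rasgrf1. In that fit 7 of 8 microglia markers and 6 of 6 astrocyte markers were called higher, and the 10 neuronal reference genes had a median of -0.17 (1 called lower). Their part in the partner values was not tested. None of the 38 was called in Synpo-/- CA3, nor in wildtype DG with all libraries. Without the library that goes against its label, 3 of 38 were called in wildtype DG, where 13.8% of all genes were called. Cdk5 was higher (0.44, edgeR adjusted p = 0.0252), and Akap5 (-0.46, adjusted p = 0.0275) and Dlg1 (-0.41, adjusted p = 0.0451) were lower. With all libraries, 8 of 8 microglia markers and 5 of 6 astrocyte markers were called higher in wildtype DG. The part of these markers in the 3 partner values was not tested.

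Between genotypes, 0 of 6 subunit genes tested were called in CA3 or DG, with or without ECL. The share of all genes called was 0.00413% in control CA3, 0.0166% in control DG, 0.00891% in ECL CA3 and 0.0166% in ECL DG. At an unadjusted edgeR p under 0.05 there was no subunit gene in the control comparisons. In ECL CA3 there was Grin1 (-0.39, adjusted p = 0.808), and in ECL DG there were Grin2d (0.56) and Grin2b (-0.37), both with an adjusted p of 1.0 after rounding. Without the library that goes against its label, the ECL DG differences were 0.53 for Grin2d (95% interval 0.15 to 0.91) and -0.22 for Grin2b (-0.44 to -0.01), with 0 of 6 called and 0.0375% of all genes called. DESeq2 called none either. The genotype by lesion term, which tests whether the lesion difference depends on genotype, called 0 of 6 genes in CA3, where 0% of all genes were called, and 0 of 6 in DG, where 0.00381% were (0 of 6 and 0.00385% without that library). In control DG, the interval of the genotype difference ran from -0.21 to 0.25 for Grin2a and from -0.27 to 0.20 for Grin2b.

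The balance of the 2 main GluN2 genes was compared as the log2 ratio of Grin2a to Grin2b per kilobase, with 0.5 counts added. Group means lay between 0.51 and 0.68 in all 8 regional groups, with SDs of 0.14 to 0.20. Without the library that goes against its label, the wildtype ECL DG mean was 0.61 ± 0.155 (n = 6), and no ratio test changed its side of the threshold. Among 34 exact two-sided permutation tests of ratios, over both experiments, 7 had a raw p under 0.05 and 0 an adjusted p under 0.05. None of the 7 was a regional test of the Grin2a to Grin2b ratio. The log2 ratio of summed Grin2 genes to Grin1 was lower after ECL in Synpo-/- CA3 (4.06 ± 0.0639 against 4.23 ± 0.183, n = 6 each; exact permutation p = 0.0238, adjusted p = 0.116). It was higher in Synpo-/- than in wildtype CA3 after ECL (4.06 ± 0.0639, n = 6, against 3.72 ± 0.0248, n = 3; exact permutation p = 0.0238, adjusted p = 0.116), which is the smallest p this design allows.

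The third comparison asked which mRNAs were more abundant in the Synpo-coIP than in the input of the same lysates. In wildtype cultures all subunit genes with enough reads were. In control cultures, Grin1 measured 16.9, 23.4, 19.5, 19.4 and 16.9 CPM in the 5 inputs and 35.0, 40.0, 57.6, 47.6 and 38.8 in the coIPs of the same lysates. Every coIP was above every input, and Grin1 rose by 1.20 (SE 0.139, edgeR quasi-likelihood test, adjusted p = 5.84e-06). Grin2b measured 207, 271, 301, 271 and 294 CPM in input and 400, 438, 568, 533 and 537 in coIP. It also did not overlap and rose by 0.90 (SE 0.12, adjusted p = 2.01e-05). Grin3a rose from 25.2 CPM ± 1.66 to 40.7 ± 2.29 (SD, n = 5 each), without overlap (0.71, SE 0.0854, adjusted p = 8.31e-06). Grin2d, with 16 to 27 reads in the inputs and 18 to 47 in the coIPs, rose by 0.94 (SE 0.248, adjusted p = 0.00479). Grin2a showed the smallest rise, with 459, 452, 591, 463 and 506 CPM in input and 540, 635, 718, 626 and 643 in coIP. Its coIP value exceeded the input of the same lysate in 5 of 5 pairs, although the groups overlapped, and it rose by 0.37 (SE 0.0978, adjusted p = 0.00468). So 5 of the 5 genes tested were called higher, where 55% of all genes were called and 29.6% were called higher. Grin2c and Grin3b did not pass the filter on low counts.

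After ECL the order was similar. Grin1 measured 10.3, 9.97, 10.1, 15.8 and 13.1 CPM in input and 22.0, 35.1, 33.0, 55.5 and 36.8 in coIP, a rise of 1.64 (SE 0.217, adjusted p = 2.6e-05). Grin2d rose by 1.48 (SE 0.339), Grin2b by 1.02 (SE 0.112), Grin3a by 0.53 (SE 0.114) and Grin2a by 0.36 (SE 0.11, adjusted p = 0.0121). Again 5 of 5 genes tested were called higher, where 58.3% of all genes were called and 30.5% called higher, and for none of the 5 did the groups overlap. A lesion by fraction term, which tests whether ECL changed the coIP difference, called 0 of 6 genes tested, where 0% of all genes were called. Its estimate for Grin1 was 0.48 (95% interval -0.07 to 1.03).

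**Figure D4:**
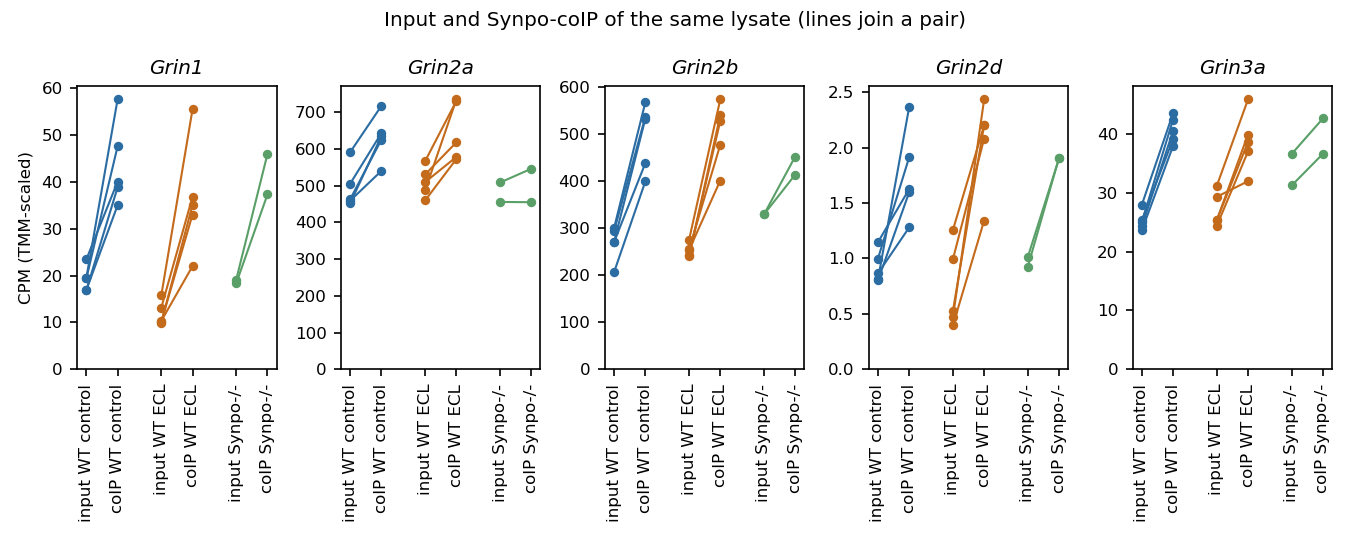
TMM-scaled CPM of 5 NMDA receptor subunit genes in input and Synpo-coIP; each line joins the 2 fractions of 1 lysate, for wildtype control (5 pairs), wildtype ECL (5 pairs) and Synpo-/- cultures (2 pairs), on linear axes from 0. In both wildtype sets all 5 lines rise for every gene; in Synpo-/- cultures both lines of Grin1 rise steeply (18.3 to 37.3 and 19.1 to 45.9 CPM) and those of Grin2a are nearly flat.

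In the libraries labelled Synpo-/-, Grin1 was higher in the coIP as well. It measured 18.3 and 19.1 CPM in the inputs and 37.3 and 45.9 in the coIPs, a rise of 1.12 (SE 0.159, adjusted p = 0.000494). Grin2c was called higher too (2.14, SE 0.728, adjusted p = 0.0406), on 6 and 5 reads in the inputs and 38 and 20 in the coIPs. That call was lost when either input or the first coIP library was left out (adjusted p = 0.162, 0.20 and 0.351). Grin2b measured 329 and 329 CPM in input and 414 and 453 in coIP, and its difference of 0.36 (SE 0.13) lay at the threshold, with an adjusted p of 0.05 after rounding that did not pass. With each lysate as a replicate block Grin2b passed (adjusted p = 0.0478). Grin3a (0.19, 95% interval -0.14 to 0.52) and Grin2a (0.02, -0.29 to 0.33) were not called, and neither was Grin2d (0.94, adjusted p = 0.0727). Thus 2 of 6 genes tested were called, both higher, where 31.4% of all genes were called and 15% called higher.

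Whether the coIP difference depends on genotype was tested by a genotype by fraction term with wildtype control cultures. It called 0 of 7 subunit genes, where 0% of all genes were called. For Grin1 the difference between genotypes was -0.04 (95% interval -0.55 to 0.48). It was -0.47 for Grin3a (-0.81 to -0.12, edgeR adjusted p = 0.576) and -0.49 for Grin2b (-0.92 to -0.05, adjusted p = 0.63). The Synpo-/- libraries were sequenced more deeply than the wildtype ones, and the depth cannot be told apart from the genotype here.

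The coIP difference of all genes rose with exonic length. In wildtype control cultures, the median log2 difference was -0.63 over 1732 genes of up to 2 kb, 0.21 over 4539 genes of 5 to 10 kb, 0.46 over 1014 genes of 10 to 15 kb and 0.65 over 395 genes longer than 15 kb, of which 78.2% were called higher. In the Synpo-/- libraries the shortest and longest classes had medians of -0.40 and 0.45. Grin1 is in the 5 to 10 kb class and its difference of 1.20 was above that class's median of 0.21. Grin2a and Grin2b are in the longest class, with differences of 0.37, below its median, and 0.90, above it.

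When the length trend was removed in the fit, Grin1 was still called higher in wildtype control (0.86, adjusted p = 0.00011), wildtype ECL (1.29, adjusted p = 0.000162) and Synpo-/- cultures (0.89, adjusted p = 0.00137). With trends in length and G and C content both removed it remained called, at 0.57, 0.95 and 0.74. Grin2a changed sign without the length trend, to -0.22 in wildtype control (adjusted p = 0.062), -0.27 in wildtype ECL (adjusted p = 0.0256) and -0.39 in Synpo-/- (adjusted p = 0.0483). With each lysate as a block the control value, -0.21, was called lower (adjusted p = 0.0145). Grin2b shrank to 0.19 (adjusted p = 0.155) in control and 0.24 (adjusted p = 0.0281) after ECL, and with each lysate as a block the control difference was called (adjusted p = 0.0175). Grin2d kept its calls in wildtype without the length trend (0.76 and 1.33) and lost them when the G and C trend was removed too (0.03 and 0.50). Grin3a remained called in control without the length trend (0.27, adjusted p = 0.0133) and not after ECL (0.07, adjusted p = 0.627). With both trends removed, Grin3a was called in control (0.45, adjusted p = 0.000363) and after ECL (0.27, adjusted p = 0.045). Grin2b was then called too, in control (0.32, adjusted p = 0.0348) and after ECL (0.39, adjusted p = 0.00309). In Synpo-/- cultures without the length trend, Grin2b (-0.14, adjusted p = 0.43) and Grin3a (-0.11, adjusted p = 0.639) were not called.

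**Figure D5:**
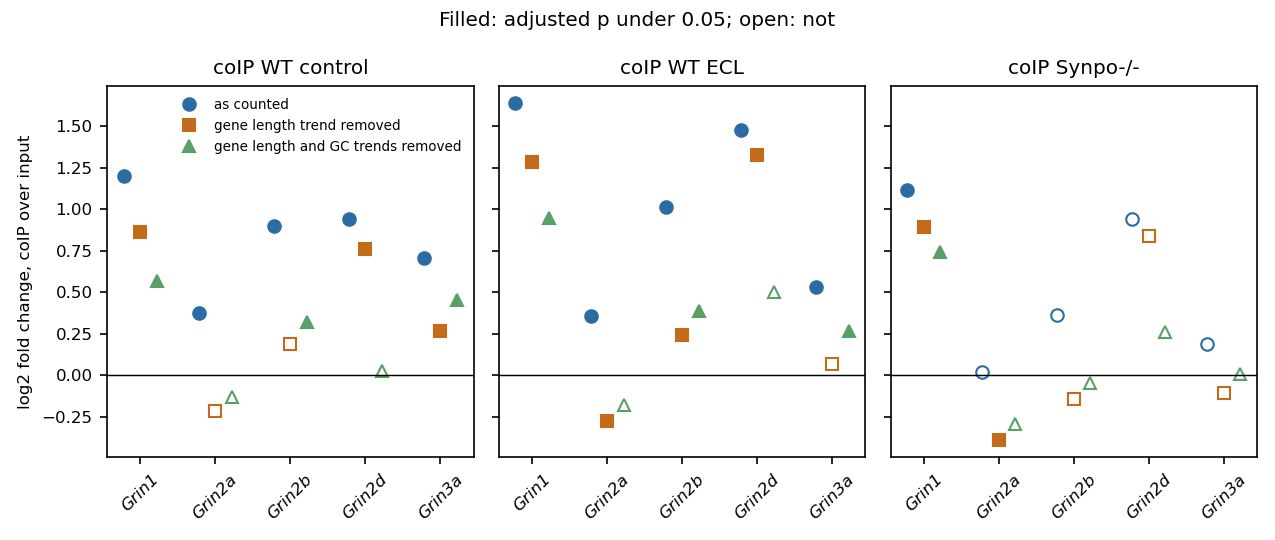
Log2 fold change of Synpo-coIP over input for 5 subunit genes as counted (circles), with the trend in gene length removed (squares) and with trends in length and G and C content removed (triangles), in wildtype control, wildtype ECL and Synpo-/- cultures; filled symbols have an adjusted p under 0.05. Grin1 stays above 0 and filled throughout (0.57 to 1.64), and Grin2a falls below 0 without the length trend (-0.22, -0.27 and -0.39).

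The ratio of Grin2a to Grin2b was lower in coIP than in input. The log2 ratio per kilobase was 1.35 ± 0.176 in wildtype control input and 0.83 ± 0.126 in coIP (n = 5 each, exact permutation p = 0.00794, adjusted p = 0.054). After ECL it was 1.48 ± 0.141 and 0.83 ± 0.168 (exact permutation p = 0.00794, adjusted p = 0.054). The groups did not overlap in either set, the p is the smallest that 5 against 5 allows, and neither passed adjustment over the 34 tests. With the lysate as a replicate block the exact sign-flip p was 0.0625 in both sets, the smallest that 5 pairs allow. In Synpo-/- lysates the ratio was 0.94 and 1.10 in input and 0.61 and 0.74 in coIP.

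Partner mRNAs also split between the fractions. In wildtype control cultures 20 of 37 tested were higher in coIP and 10 lower, with a median of 0.45 (0.04 over all genes), where 55% of all genes were called and 29.6% called higher. In Synpo-/- cultures 9 were higher and 8 lower, with a median of 0.02 (0.02 over all genes), where 31.4% were called and 15% called higher. Among the higher were the large kinase anchor Akap9 (363 CPM ± 22.8 against 191 ± 18.1, n = 5 each; 0.94, SE 0.0866, adjusted p = 8.79e-07), the receptor tyrosine kinase Ephb2 (1.17, SE 0.127) and the reelin receptor Lrp8 (0.78, SE 0.102). Each was also called higher in Synpo-/- lysates (0.73, 0.99 and 0.76). Among the lower were Lin7a, a small scaffold of the receptor transport complex (49.0 CPM ± 4.51 against 136 ± 11.9; -1.46, SE 0.0943, adjusted p = 2.07e-07), the calmodulin gene Calm2 (-1.54, SE 0.127) and serine racemase, Srr, which makes the co-agonist D-serine (-0.97, SE 0.0839). In Synpo-/- lysates these fell by 1.39, 0.94 and 0.90. All these partner values are as counted, without removal of the length trend given above. The part of exonic length in them was not tested.

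The last comparison asked whether ECL changed subunit mRNAs in whole cultures. Grin1 fell in the input, from 16.9, 23.4, 19.5, 19.4 and 16.9 CPM in control to 10.3, 9.97, 10.1, 15.8 and 13.1 after ECL. No ECL library reached the lowest control library, and Grin1 fell by 0.71 (SE 0.148, edgeR quasi-likelihood test, adjusted p = 0.0153). It was the only 1 of 5 genes tested that was called, where 5.61% of all genes were. Without control replicate 2, the highest control, the difference was -0.63 and missed the threshold (adjusted p = 0.053), and in the 9 other fits that each left out 1 library it stayed called. Grin2a (0.04, 95% interval -0.15 to 0.23), Grin2b (-0.09, -0.30 to 0.11) and Grin3a (0.09, -0.10 to 0.29) were not called. The log2 ratio of summed Grin2 genes to Grin1 was accordingly 5.01 ± 0.267 after ECL and 4.28 ± 0.25 in control (n = 5 each, exact permutation p = 0.00794, adjusted p = 0.054).

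Other groups of genes moved with the lesion in these inputs. The neuronal reference genes summed to 8148 to 9713 CPM in control and 7105 to 8474 after ECL, with 4 of 10 called lower (Nefm, Syn1, Nefl and Tubb3). Astrocyte markers ranged from 13345 to 21017 CPM in control and from 19462 to 29354 after ECL, and microglia markers from 556 to 1089 and from 1020 to 1470, with 1 of 6 and 3 of 8 called higher. All 6 interneuron markers had a negative difference (median -0.54, 1 called lower), as had all 5 CA1 markers (median -0.39, 0 called), and the median of all genes was 0.00. Their part in the Grin1 value was not tested. Of the 37 partner genes tested, 3 fell, where 5.61% of all genes were called, namely Akap5 (-0.45, SE 0.0715), Lin7b (-0.92, SE 0.18) and Calm3 (-0.24, SE 0.0632). In the coIP fraction, ECL changed 0 of 5 subunit genes tested, where 0.314% of all genes were called, and the Grin1 difference was -0.25 (95% interval -0.69 to 0.20, adjusted p = 0.682). The whole-culture inputs and the regional libraries differ in how the RNA was obtained and were normalized apart, so their levels are not compared.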

How the data were processed

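RNA sequencing counts of 63 libraries were used. According to the methods and the processing notes, adapters were removed with cutadapt 3.5, alignment to mm10 used RNA STAR 2.7.8a, and featureCounts 2.0.1 assigned reads to exons without strand. The deposited values are the authors' raw counts for 55291 gene symbols, and no column was left unused. Both experiments used the same library kit, but regional tissue was lysed directly and coIP and input RNA was isolated first, and they were analysed apart.

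Each of 21 comparisons was fitted on its own groups with edgeR 4.0.16 in R 4.3.3 (TMM, filterByExpr, quasi-likelihood test, Benjamini-Hochberg over all genes tested), and an adjusted p under 0.05 was called. Intervals are 95% intervals from the fit's t distribution, and SE is the log2 fold change over the square root of F. Positions and exon lengths came from the deposited GENCODE annotation (GRCm38), base composition from GRCm38.p6. Scripts were tested on simulated data. Ratios were compared by exact permutation over libraries. Alternatives were DESeq2 1.42.0, RLE factors, no low-count filter, a mean normalized count over 300, removed length or length and G and C trends (lowess, span 0.3, genes with mean count over 50), a replicate block, 5 counts added to ratios, and leaving out libraries; the block with trends was added after seeing the data.

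The 7 members, the 38 partners and the marker lists were chosen with earlier results of these data known. The partners named are up to 3 of smallest p in each direction per comparison, and the like genes the 3 of highest r per member. A few other called partners were named after their values were seen. Labels number the libraries, and for coIP and input the number was taken to mark 1 lysate. Deviations from group means correlated in every wildtype pair (r 0.304 to 0.64 in control, 0.155 to 0.625 after ECL). The same-numbered input was the best match of the coIP library for 4 of 5 in each set. The pairing thus rests on the labels, and r alone does not settle it. In Synpo-/- the lysate was taken from the preparation number (r 0.0867). The spread between libraries may be partly technical. No 2 replicates agreed within sampling noise (130 pairs). Counting error is smallest for the genes with most reads, and intervals cover the spread between libraries.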

Additional observations from a re-analysis of the deposited data

Results flagged for a closer look

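Of 90 sets of values of 4 to 10 libraries checked, 7 had 1 library standing apart from the others by Dixon's criterion at 95%, and chance marks about 1 in 20 such sets. In the wildtype ECL DG group, replicate 5 had 560 CPM of Grin2a (316 to 373 in the other 6) and 536 CPM of Grin2b (256 to 358), which are CA3 levels, as its region markers are. In the Synpo-/- ECL DG group, replicate 2 had 14.4 CPM of Grin1 (20.9 to 22.0 in the other 3).

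The remaining 4 rest on few reads. Grin3b measured 0.527 CPM in Synpo-/- ECL CA3 replicate 6 (0.101 to 0.207 in the other 5), 0.592 CPM in wildtype control input replicate 3 (0.0425 to 0.152) and 0.592 CPM in wildtype control coIP replicate 4 (0.0432 to 0.151). Grin2c measured 1.08 CPM in wildtype control coIP replicate 2 (0.0711 to 0.308).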

How the results depend on the processing

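The number of subunit genes called, in either direction, kept within 1.5 times its value under most alternatives, with the exceptions below. Without the length trend, the coIP counts include Grin2a called lower in wildtype ECL, in Synpo-/- and, with the replicate block, in wildtype control. The lesion in wildtype CA3 gave 1 call (Grin1) with DESeq2 or without a low-count filter, against 0. The region in wildtype control gave 2 (Grin2a, Grin2b) with DESeq2, with the length trend removed and with both trends removed, against 0. The region in wildtype ECL gave 4 with the replicate block and 4 without DG replicate 5, against 0. CA3 has no replicate 5 there, so the block fit also took no regional difference from that library. CoIP over input in wildtype control gave 3 with the length trend removed, and 3 with both trends removed with or without the replicate block, and in wildtype ECL 3 with both trends removed, with or without the block, against 5. In Synpo-/- it gave 1 with both trends removed, with or without the block, and 1 with a mean count over 300 required, against 2, and 1 to 2 when 1 library was left out. The lesion in input gave 0 to 1 when 1 library was left out.

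Grin2a over input reversed without the length trend to -0.22 and without both trends to -0.13 in wildtype control (with the replicate block -0.21 and -0.13), to -0.27 and -0.18 in wildtype ECL (with the block -0.27 and -0.18), and to -0.39 in Synpo-/- without the length trend (-0.39 with the block). The cause was not tested. With the replicate block, paired by lysate, the coIP ratios of Grin2a to Grin2b kept -0.52 (control) and -0.65 (ECL), and those of summed Grin2 to Grin1 -0.65 and -1.04, with an exact p of 0.0625, the smallest that 5 pairs allow. Leaving out 1 library took these ratio differences across a raw p of 0.05: Grin2a to Grin2b for the lesion in input 0.0697 to 0.194, and summed Grin2 to Grin1 for the lesion in Synpo-/- DG -0.45 to -0.16, for the region in Synpo-/- ECL -0.39 to -0.11, for the genotype in ECL CA3 0.33 to 0.35 and for the lesion in coIP 0.22 to 0.49. For the genotype in ECL CA3 the smaller design cannot reach that p. Without crossing it, summed Grin2 to Grin1 ran from -0.75 to -0.32 for the lesion in wildtype CA3, from -0.54 to -0.11 for the region in wildtype control, from 0.0947 to 0.30 for the genotype in control DG, and changed sign for the genotype in control CA3 (-0.24 to 0.20) and ECL DG (-0.24 to 0.0418) and the lesion in wildtype DG (-0.11 to 0.0977). In regional comparisons the numbers were not taken to pair the libraries. For DG and CA3 of control Synpo-/- cultures, r was positive in all 6 same-numbered pairs (0.0675 to 0.433). For 4 of these the same-numbered CA3 library was the best match of the DG library. In every other regional comparison the lowest r was negative. The replicate block changed no other regional call of a subunit gene than those given and Grin1 in Synpo-/- ECL (called lower). Low counts limit Grin2c, Grin2d and Grin3b.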
